A study of Oryctolagus cuniculus with 4 samples.

Results

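Cell cycle genes were examined in single-cell RNA sequencing of rabbit bladder mucosa. The 63 members were all genes whose symbol matched a fixed list of names (the MCM, ORC, RFC and CENP families, cyclins A, B, D and E, CDK1, CDK2, CDK4 and CDK6, the CDKN, E2F, PLK, AURK, BUB, CDC25 and RRM families, and CDC6, CDC7, CDC20, CDC45, TOP2A, PCNA, MKI67, TYMS, TPX2, NUSAP, BIRC5 and UBE2C), among 18475 genes in the count matrices, of which 9771 carried a symbol. The rule used names and no measured value, although it was set with earlier results of these data known. All 63 members had unique molecular identifiers (UMIs, each the count of 1 captured transcript) in every sample. MKI67, CCNB1, CCND1, CDKN1A, CDKN1C and CDKN2A, which belong to the same pathways, were not analysed here because no gene in the matrices was matched to those symbols. Of the other names in the list, CDK2, CDK4, CDC45, TYMS, NUSAP, BIRC5, UBE2C and the A cyclins gave no member either, and CDC20 gave only CDC20B. The families were incomplete too, and AURKA, CCNE1, E2F1, MCM6, MCM7 and RRM2 were among those missing. Of the members, 6 share a name with the list and are known for another role (CDKN2AIP, CDKN2AIPNL, MCM3AP, CDC73, CCNB1IP1 and CDC20B), and they were kept as a separate group.

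The mucosa came from adult New Zealand rabbits, 1 library per sample. Injury_1 and Injury_2 were taken on day 10 after a patch of mucosa had been resected, when new urothelium had just closed over the wound, and Normal_1 and Normal_2 came from unwounded bladder. After the filters of the study's methods, 6081, 5529, 4308 and 6027 cells remained in Injury_1, Injury_2, Normal_1 and Normal_2, with median depths of 6755, 7186, 4813.5 and 6759 UMIs per cell, so Normal_1 was the shallowest library and had the fewest cells. The cell counts are higher in both groups than those the study reports after its own filtering. Of 25592 barcode sequences, 67 occurred in 2 samples. Cells were clustered with the members and other known cycle genes left out of the clustering genes, and clusters were named from marker genes, which gave 7 classes with at least 20 cells in every sample. The samples are labelled urothelium, but the epithelial-like cells made up 9.31%, 6.40%, 10.2% and 2.84% of them, and fibroblast-like and endothelial-like cells were the most numerous classes (9030 and 5443 cells, against 1532 epithelial-like cells).

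The cell cycle runs through G1, DNA synthesis, G2 and mitosis. Cyclin-dependent kinases (CDKs), switched on by cyclins and held back by CDK inhibitors, drive the steps, and E2F transcription factors turn on the genes for DNA synthesis when a cell leaves G1. Origins of replication are licensed by the origin recognition complex (ORC), CDC6 and the MCM helicase, and later the CDK1 and cyclin B kinase, polo and Aurora kinases and the centromere proteins carry the cell through division. The urothelium is known to divide rarely in the resting bladder and to divide after injury.

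The first question was in which cells these transcripts sat. Cells were called co-detected when they held UMIs of at least 2 of 6 mitotic genes (AURKB, BUB1, BUB1B, CCNB2, CDK1 and PLK1), and when a member was itself among the 6, it was left out of its own criterion. This criterion was chosen after values had been seen, and it describes the members without a test. Of 21945 cells, 319 were co-detected, which is 1.45% of cells and 2.68% of UMIs, while 1269 cells held UMIs of only 1 of the 6 genes and 20357 of none. Co-detected cells were deep, with a median of 11777 UMIs against 6406.5 in the others, and 15.4% of them had a doublet score in the top 5%. To take depth out, every gene is given below as CPM, its UMIs over all UMIs of a group of cells scaled to a total of 1000000, and as the ratio of the CPM in co-detected cells to that in all other cells. CPM of different genes are not compared with each other. The ratio pools all classes of cells, and the 2 groups differed in their makeup. Of the 319 co-detected cells 97 were T cell-like, against 1180 of all 21945 cells. The part of this in the ratios was not tested.

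Among the 63 members, 28 had a ratio above 10, 9 had a ratio from 5 to 10, and 5 from 2 to 5. For 12 members it lay between 1 and 2, and for the other 9 it was at or below 1. The criterion rests on genes of mitosis, so a gene that acts in G1 or at the start of replication can have a low ratio whatever its part in the cycle.

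The 6 reference genes are themselves members of the mitotic groups, so high ratios among the genes of mitosis follow in part from the criterion. The median was 59.3 for the 5 genes of the mitotic machinery and 46.4 for the 6 genes of mitotic entry. CCNB2, the cyclin B2 partner of CDK1, stood at 168 CPM in co-detected cells and 1.19 CPM in the rest, a ratio of 141, and 663 of its 846 UMIs fell in these cells. The ratio of CCNB2 was 79.6 and 167 in the injured samples (Injury_1, then Injury_2) and 175 and 269 in Normal_1 and Normal_2, high in every sample and lower in both injured samples than in both normal ones. CDC25C, the phosphatase that activates CDK1, had a ratio of 148 with only 71 UMIs in all. CDK1 itself reached 50.9, and PLK1, the polo kinase of mitosis, 41.9. CDC25A was the exception in this group, with a ratio of 1.88. In the mitotic machinery, the spindle checkpoint kinase BUB1 reached 139, the checkpoint protein BUB1B 59.3, the Aurora B kinase AURKB 93.6 and the spindle assembly factor TPX2 36.5. TOP2A, the topoisomerase that untangles sister chromatids, had a ratio of 19.2: it was detected in 83.7% of co-detected cells and also in 12.8% of the others, and 34.6% of its 5951 UMIs came from co-detected cells.

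Centromere proteins and E2F factors followed. The 13 centromere proteins had a median ratio of 15.7, from 1.81 to 54.4, where the upper end belongs to the centromeric histone CENPA with no more than 10 UMIs. CENPE, the kinetochore motor, was at 20.1 and CENPU, of the inner kinetochore, at 17.8, but CENPV was at 2.27. Of the 4 E2F genes, E2F2 (86.5) and the repressor E2F8 (61.6) were concentrated in co-detected cells, and E2F3 was least so at 2.75.

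The replication genes divided. Over the 13 genes of origin licensing and firing the median ratio was 7.34, and the range ran from 0.68 to 59.6. MCM10, which helps to start the helicase, led with 59.6, and its values by sample were 60.4, 61.7, 46.1 and 54.2 in Injury_1, Injury_2, Normal_1 and Normal_2. The helicase subunits MCM5 and MCM3 were at 18.7 and 13.2. The origin recognition subunits ORC4 and ORC5 lay below 1, at 0.81 and 0.68, and ORC4 was below 1 in all 4 samples. PCNA, the sliding clamp of the replication fork, had a ratio of 5.22 (6.98, 4.51, 3.28 and 5.67 in Injury_1, Injury_2, Normal_1 and Normal_2). PCNA was detected in 92.2% of co-detected cells and in 54.6% of all others, and 12.6% of its UMIs came from co-detected cells. RRM1, the large subunit of ribonucleotide reductase, was at 11.0, and the clamp loader subunit RFC1 at 1.97.

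The regulators of G1 had ratios closer to 1. The median ratio of the 4 G1 cyclins and kinases was 1.32. CCND2, the cyclin D2 of early G1 and the member with the most UMIs (31567), was lower in co-detected cells in all 4 samples. Its level was 147, 155, 189 and 94.3 CPM in the co-detected cells of Injury_1, Injury_2, Normal_1 and Normal_2 and 224, 185, 240 and 177 CPM in the other cells, a pooled ratio of 0.717. Among the 4 CDK inhibitors, CDKN3, a phosphatase that acts on CDKs, was at 15.3 and the CDK4 and CDK6 inhibitor CDKN2C at 6.01, whereas CDKN1B (p27) stood at 1.33 and CDKN2B at 0.93. PLK2 and PLK3, polo kinases known for stress responses, were at 0.59 and 0.70. The level of PLK2 differed between classes, as given below, and the part of this in its ratio was not tested. The 6 genes with another known role had a median ratio of 1.13.

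**Figure D1:**
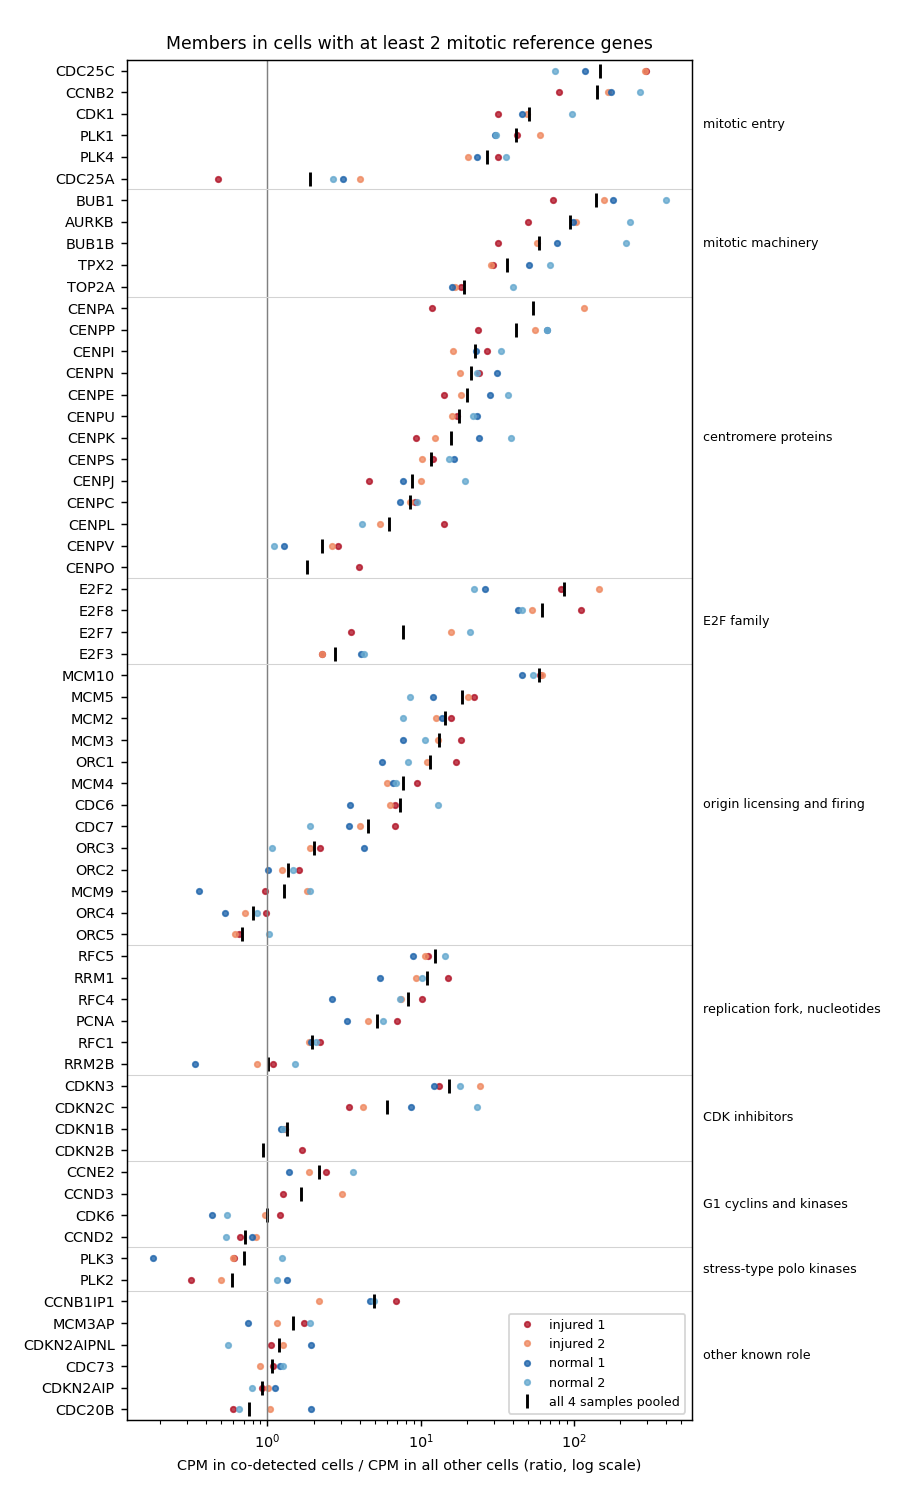
Ratio of CPM in co-detected cells to that in all other cells (log axis) for each of the 63 members, grouped by role; coloured points are the 4 samples (a sample with a ratio of 0 is not drawn), black bars the 4 samples pooled, and the grey line a ratio of 1. The genes of mitosis, 6 of which set the criterion, sit mostly above 10 and the G1 regulators and stress polo kinases near or below 1, in injured and normal samples alike.

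The next question was which classes the co-detected cells belonged to. They made up 2.20% (134 cells) and 1.72% (95 cells) of Injury_1 and Injury_2, and 0.859% (37 cells) and 0.879% (53 cells) of Normal_1 and Normal_2. T cell-like cells held the highest share in the injured samples. Their co-detected cells numbered 67 of 633 in Injury_1 (10.6%, 95% Wilson interval 8.42 to 13.2%), 26 of 339 in Injury_2 (7.67%, 5.29 to 11.0%), 1 of 99 in Normal_1 (1.01%, 0.179 to 5.5%) and 3 of 109 in Normal_2 (2.75%, 0.940 to 7.78%). Both injured samples were above both normal ones, although the intervals of Injury_2 and Normal_2 overlapped. Median depth was similar (3304, 3411, 3329 and 3927 UMIs per cell), and after thinning every cell to 1000 UMIs the shares were 1.79%, 1.21%, 0.0293% and 0.636% in the same order. Such intervals cover counting error only, and with 2 samples against 2 an exact permutation test cannot give a p below 0.33. T cell-like cells themselves were 10.4% and 6.13% of the cells in the injured samples and 2.30% and 1.81% in the normal ones, so the normal values rest on few cells.

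Most co-detected T cell-like cells lay in a single cluster. This cluster (cluster 16), led by IL1RL1, TNFRSF9 and CORO1A and not by any member, held 170, 91, 4 and 6 cells of Injury_1, Injury_2, Normal_1 and Normal_2, which is 26.9%, 26.8%, 4.04% and 5.5% of their T cell-like cells. It contained 92 of the 97 co-detected T cell-like cells. Within it, 36.5% and 28.6% of the injured cells were co-detected (Injury_1, then Injury_2), as were 25% and 50.0% of the cells of Normal_1 and Normal_2, and the normal samples add only 1 and 3 cells to these shares. The groups thus overlapped inside the cluster, while the share of T cell-like cells that fell in it was higher in both injured samples.

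In the epithelial-like cells, 14 (2.47%), 9 (2.54%), 0 and 3 (1.75%) were co-detected in Injury_1, Injury_2, Normal_1 and Normal_2, and the 0 of Normal_1 allows a share of up to 0.680% when 3 cells are taken as the limit (95% Wilson upper bound 0.864%). After thinning to 1000 UMIs these shares were 0.217%, 0.434%, 0 and 0.222%, so that Injury_1 lay just below Normal_2 and the groups overlapped. Of these 26 cells, 25 were in the cluster led by SERPINB5, AQP3, KRT5 and LAMB3, which includes the basal keratin KRT5. There the shares were 7.25% and 5.67% in Injury_1 and Injury_2, against 0 (up to 1.51% with 3 cells as the limit, 95% Wilson upper bound 1.89%) and 2.65% in Normal_1 and Normal_2, both injured samples above both normal ones. Thinned shares in this cluster kept that order (0.616%, 0.622%, 0 and 0.318%). Macrophage-like shares were 2.45%, 2.70%, 1.79% and 0.952% in the same order, from 13, 12, 2 and 1 cells, and 0.190%, 0.194%, 0.111% and 0.0859% after thinning. Fibroblast-like shares were 1.03%, 1.35%, 0.563% and 0.940%, and Injury_1 and Normal_2 were close to each other. Median depth of these cells ran from 5096 UMIs in Normal_1 to 8561 in Injury_2, and after thinning the shares were 0.189%, 0.394%, 0.191% and 0.256%, with Injury_1 below both normal samples. In endothelial-like cells (0.764%, 0.914%, 1.39% and 0.818%) the groups overlapped and Normal_1 was highest. Most of the fibroblast-like (82 of 92) and endothelial-like (43 of 55) co-detected cells lay in small clusters of 91 and 55 cells that were led by cycle genes. A coarser clustering gave a single such cluster of 146 cells, named fibroblast-like. With cycle genes kept in the clustering, 61 endothelial-like cells became fibroblast-like, so the endothelial-like shares depend on the clustering. No co-detected cell was found among the 451 neutrophil-like cells, a class known not to divide once mature. The 95% Wilson upper bounds were 1.47%, 2.71%, 13.3% and 11.4% in Injury_1, Injury_2, Normal_1 and Normal_2. In the same order, 125, 39, 3 and 13 of these cells did not reach the 1000 UMIs used for thinning. For such shallow cells the 0 tells little.

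**Figure D2:**
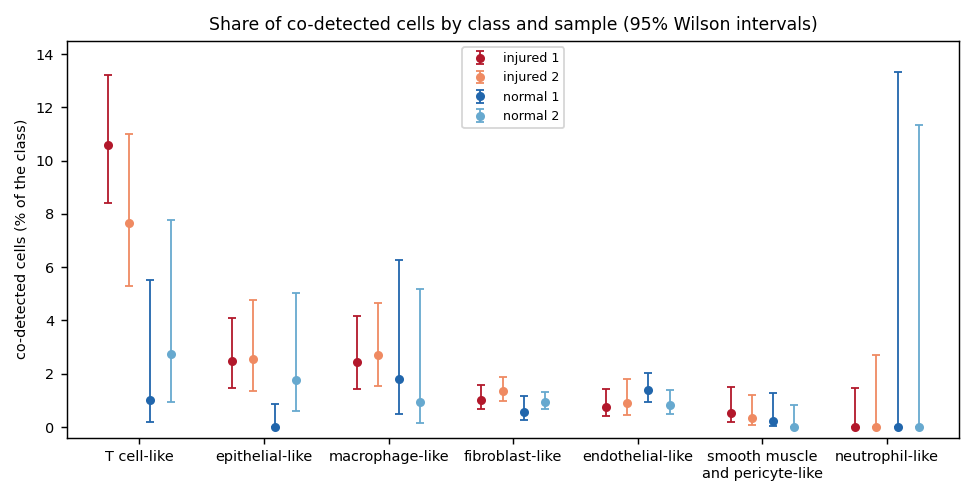
Co-detected cells as percent of each class (vertical axis) in the 4 samples, with 95% Wilson intervals. The T cell-like shares of Injury_1 and Injury_2 (10.6% and 7.67%) are the highest points, and the other classes stay below 3% in every sample.

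Members were then compared between classes, each class against the fibroblast-like cells of the same samples, with UMIs summed per class and sample (edgeR's quasi-likelihood test with sample as a block, Benjamini-Hochberg adjusted p at most 0.05 over the 8273 genes tested, 51 of them members). In T cell-like cells 35 of 51 members were called, against 64% of all genes. Of these members 31 were higher and 4 lower, where 27.9% of all genes tested were called higher and 36% lower. The median log2 difference was 1.24 over the members and -0.18 over all genes.

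By role, the genes called higher in T cell-like cells were 4 of 4 tested in mitotic entry, 4 of 5 in the mitotic machinery, 7 of 8 centromere proteins, 5 of 6 at the replication fork, 2 of 2 E2F genes and 6 of 12 in origin licensing and firing. Among the licensing genes, MCM10 was higher by 4.46 ± 0.62 (log2, standard error), MCM3 by 3.52 ± 0.44 (64.0 against 5.43 CPM, means of 4 samples), MCM2 by 3.34 ± 0.48 and MCM5 by 3.01 ± 0.42 (83.3 ± 72.5 against 9.79 ± 6.94 CPM, SD, n = 4). The clamp loader subunit RFC4 differed by 2.84 ± 0.26 and PCNA by 1.24 ± 0.28. Of the mitotic genes, BUB1 was higher by 4.17 ± 0.59 (27.3 against 1.40 CPM), AURKB by 3.88 ± 0.50 (48.5 against 3.04 CPM), CDK1 by 2.19 ± 0.44 and CCNB2 by 1.51 ± 0.51. Cyclin D2 (CCND2) was higher by 0.91 ± 0.29 and p27 (CDKN1B) by 0.71 ± 0.23. The 4 members that were lower included PLK2 (-4.11 ± 0.47, 15 against 191 CPM), CDKN2C (-0.86 ± 0.28), CDC73 (-0.67 ± 0.22), a subunit of the PAF transcription complex, and CDC20B. The large SD of several T cell-like means comes with levels that differed between injured and normal samples, as given below.

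These differences went with cluster 16, which held 271 of the 1180 T cell-like cells. It was picked because it held most of the co-detected cells, which are defined by members. Lower values of members without it therefore follow in part from the choice. With that cluster left out, a step chosen after seeing the data, 20 of the 49 members tested were called, 12 higher and 8 lower (59.7%, 24.8% and 34.9% of all genes), and the median log2 difference was 0.15. AURKB was then at 5.27, 0, 0 and 6.66 CPM in Injury_1, Injury_2, Normal_1 and Normal_2 and differed by -0.04 ± 0.83 (edgeR adjusted p = 0.975). CDK1 (0.15 ± 0.50, edgeR adjusted p = 0.822) and PCNA (0.36 ± 0.24, edgeR adjusted p = 0.194) were no longer called, and CCNB2 (-3.30 ± 0.98) and TOP2A (-1.75 ± 0.51) were lower than in fibroblast-like cells. The genes that were still higher included MCM2 (2.70 ± 0.56), MCM3 (2.39 ± 0.45), MCM5 (1.13 ± 0.38), RFC4 (1.89 ± 0.26), BUB1 (1.79 ± 0.73), CCND2 (1.09 ± 0.28) and CDKN1B (0.95 ± 0.24). BUB1 rested there on only 12, 4, 1 and 1 T cell-like UMIs in Injury_1, Injury_2, Normal_1 and Normal_2. By role, 3 of 11 licensing genes, 1 of 8 centromere proteins, 1 of 5 mitotic machinery genes and 0 of 4 mitotic entry genes tested were called higher without the cluster in edgeR.

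In the other classes the share of members called was at or below that of all genes. The calls numbered 15 of 51 in endothelial-like (56% of all genes), 25 in epithelial-like (60.5%), 23 in macrophage-like (57.9%), 28 in neutrophil-like (55.2%) and 11 in smooth muscle and pericyte-like cells (36.4%). Endothelial-like cells had 4 members higher and 11 lower (25.8% and 30.2% of all genes), epithelial-like cells 7 and 18 (28.1% and 32.4%), macrophage-like cells 6 and 17 (26.6% and 31.4%), smooth muscle and pericyte-like cells 4 and 7 (15.7% and 20.8%), and neutrophil-like cells 3 and 25 (22.2% and 33%). Without Injury_2 there were 15 calls among 47 members in macrophage-like (47.2% of all genes), 16 in neutrophil-like (45%) and 3 in smooth muscle and pericyte-like cells (25.1%), and without Injury_1 there were 5 of 50 in the latter (26.9%). A coarser clustering gave 26 calls of 52 in endothelial-like cells (57.1% of all genes). Neutrophil-like calls rest on few UMIs, for instance 19 of BUB1B and 5 of TOP2A. The macrophage-like class also carried 5 neutrophil markers at a summed 22030 to 39078 CPM beside 13944 to 21608 CPM of its own 8 markers, and the part of this in its values was not tested. Of those 5 markers, CD14 and IL1B are known to be expressed by macrophages as well.

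The CDK inhibitor CDKN2C was the only member called in the same direction in all 6 contrasts. Its smooth muscle and pericyte-like call was lost without Injury_1, Injury_2 or Normal_1 (edgeR adjusted p = 0.260, 0.0654 and 0.117), and its T cell-like call without Normal_1 (edgeR adjusted p = 0.0677). Its fibroblast-like level was 29.3, 23.5, 39.4 and 11.8 CPM in Injury_1, Injury_2, Normal_1 and Normal_2. Smooth muscle and pericyte-like cells followed with a mean of 18.9 CPM (log2 difference -0.68 ± 0.24), then T cell-like cells with 13.3, endothelial-like cells with 4.63 (-2.63 ± 0.25), macrophage-like cells with 3.05 (-2.89 ± 0.33) and epithelial-like cells with 2.04 CPM (-3.81 ± 0.29). No UMI of CDKN2C was counted in neutrophil-like cells, which makes the level at least 16.8-fold lower, taking 3 UMIs over the class as the floor. In the 4 samples, fibroblast-like values did not overlap with endothelial-like, macrophage-like or epithelial-like ones, and they overlapped with smooth muscle and pericyte-like and T cell-like ones. CDKN3 was likewise lower in endothelial-like (-2.66 ± 0.51), epithelial-like (-2.14 ± 0.53) and neutrophil-like cells (-2.43 ± 0.86), although its fibroblast-like mean of 47.5 CPM had an SD of 38.4. The p27 gene CDKN1B was lower in epithelial-like cells by -1.65 ± 0.22 on the log2 scale (5.85 against 16.7 CPM). CDKN2B was sparse, and 28 of its 40 UMIs fell in epithelial-like cells, at 1.38, 1.96, 1.33 and 0 CPM in Injury_1, Injury_2, Normal_1 and Normal_2.

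Among the G1 regulators, CCND2 was higher in T cell-like, endothelial-like (0.69 ± 0.28) and epithelial-like cells (0.86 ± 0.28) and lower in neutrophil-like cells (-1.33 ± 0.35) than in fibroblast-like cells at 146 ± 16.5 CPM (SD, n = 4). CCND3 had at most 5.96 CPM in any of the 7 classes and samples. CDK6, a partner of the D cyclins, was higher in smooth muscle and pericyte-like cells (1.03 ± 0.24) and in neutrophil-like cells (1.75 ± 0.33), and cyclin E2 (CCNE2) was higher in smooth muscle and pericyte-like cells by 1.29 ± 0.35. PLK2 was lower in all classes except endothelial-like cells, where its mean was 205 CPM against 191, with epithelial-like cells at -1.24 ± 0.36, macrophage-like at -1.37 ± 0.37, neutrophil-like at -2.03 ± 0.45 and smooth muscle and pericyte-like cells at -2.21 ± 0.37. PLK3 was higher in neutrophil-like cells by 1.53 ± 0.30.

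The replication, centromere and mitotic genes were each called in 1 to 5 of the 6 contrasts. MCM3 was higher in endothelial-like (1.66 ± 0.40) and epithelial-like cells (1.37 ± 0.41), and PCNA in macrophage-like cells by 1.14 ± 0.28 (291 ± 19.4 against 146 ± 35.1 CPM). BUB1B (2.65 ± 0.46) and AURKB (2.53 ± 0.51) were higher in macrophage-like cells, at 7.03 and 16.3 CPM. TOP2A was lower in epithelial-like cells by -2.22 ± 0.49 (11.4 against 49.5 CPM) and in neutrophil-like cells by -3.81 ± 0.99, and the motor CENPE was lower in the same classes by -1.65 ± 0.33 and -4.26 ± 0.78. The fibroblast-like TOP2A level was 91.4 CPM in Normal_1 and 33.5 to 38.2 CPM in the other 3 samples. CENPV was higher in epithelial-like cells by 0.60 ± 0.19 and lower in macrophage-like (-0.61 ± 0.21) and neutrophil-like cells (-2.05 ± 0.32). CENPU was lower in smooth muscle and pericyte-like cells by -1.32 ± 0.34. The origin subunit ORC4 was lower in endothelial-like (-0.51 ± 0.21) and macrophage-like cells (-1.04 ± 0.25). RFC1 was lower in macrophage-like (-0.76 ± 0.21) and smooth muscle and pericyte-like cells (-0.61 ± 0.20). CDKN2AIP, named for its binding to the product of CDKN2A, was higher in endothelial-like (1.33 ± 0.20) and smooth muscle and pericyte-like cells (0.69 ± 0.20).

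**Figure D3:**
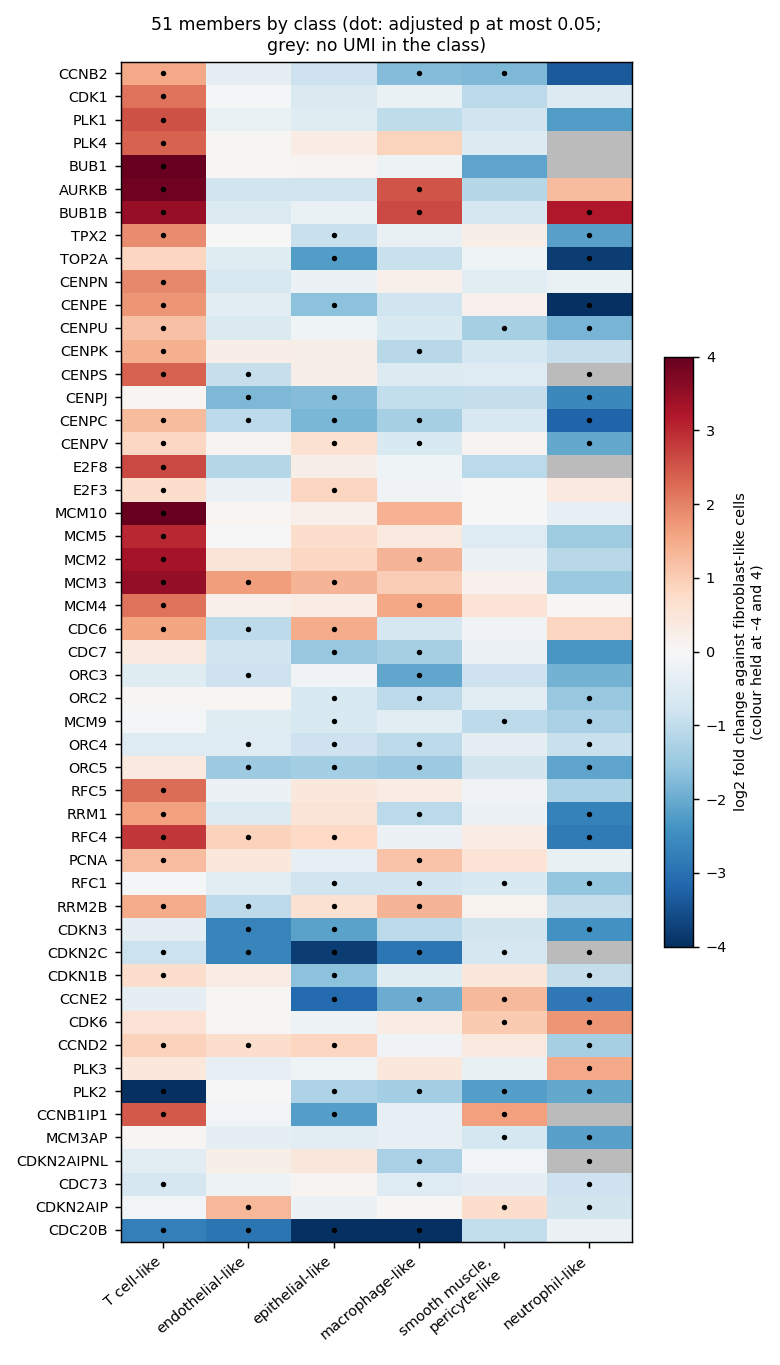
Log2 fold change of 51 members (rows, by role) in 6 classes against fibroblast-like cells, blue lower and red higher, with colour held at -4 and 4; dots mark an adjusted p at most 0.05 and grey cells have no UMI in the class. The T cell-like column is red from CCNB2 to PCNA with few exceptions, and CDKN2C carries a dot in all 6 columns.

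The main comparison of the study was between injured and normal bladder. No member passed the threshold in any of the 7 classes, with 2 samples against 2 in edgeR's quasi-likelihood test. The same was true of the sum of all cells of a sample. In T cell-like cells no gene passed at all (0 of 4530, 0%), and the smallest adjusted p of edgeR over the 44 members tested was 0.133. What follows for this class is therefore given as values, with the counts at an unadjusted p under 0.05 beside those over all genes.

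In T cell-like cells the members stood on the injured side. An unadjusted p under 0.05 was reached by 20 of the 44 members, all 20 higher in the injured samples, where 14.3% of all genes reached it and 7.22% with a higher value. Both injured samples lay above both normal ones for 30 members (35.1% of all genes) and below for 4 (14.2%), and the log2 fold change was above 0 for 36 members (49.7%). The median log2 fold change was 1.00 over the members and -0.0039 over all genes, and stayed at 1.00 with PLK4, which has no normal UMI, at its bound. It was 1.88 without Normal_2 and 0.67 over 29 members when cells with at most 10% mitochondrial UMIs were used. The 20 members at an unadjusted p under 0.05 with a higher value became 12 of 31 without Injury_1 (4.14% of all genes), 12 of 33 without Injury_2 (3.9%) and 8 of 29 at most 10% mitochondrial UMIs (5.37%). For 8 of the 44 members, 7 of them among the 20, both normal samples lay under the level that the filter on low counts asks for (9.11 CPM, 10 UMIs in the median library), so they passed it only through the injured samples, as did 4.59% of all genes. DESeq2 called 2 members, CDK1 and MCM5, among 75 genes in all. Leaving out a library left 1 sample in an arm and gave 5 calls without Injury_1, 3 without Injury_2, 5 without Normal_1 and 13 without Normal_2 (of 81, 71, 229 and 203 genes called), and CDK1, CDKN3 and MCM5 were called in each of these. Without the filter on low counts 16 members were called, all higher, among 353 genes.

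By role, the 4 mitotic entry genes tested reached the unadjusted level, with a median log2 fold change of 2.40 when PLK4 is put at its bound (3.43 as fitted). CCNB2, PLK1 and PLK4 passed the filter only through the injured samples, so that neither the count nor the median of this group is a test. CCNB2 had 29.6 and 32.0 CPM in Injury_1 and Injury_2 and 0 and 1.97 CPM in Normal_1 and Normal_2, from 87, 54, 0 and 1 UMIs (log2 fold change 4.43 ± 0.75, edgeR adjusted p = 0.133). CDK1 had 86.2, 84.8, 2.98 and 21.6 CPM in the same order (2.44 ± 0.55, edgeR adjusted p = 0.189). For both genes each injured value was above each normal one, and the injured values lay close together. The normal values differed from each other, but the 2.98 CPM of CDK1 in Normal_1 is 1 UMI. The same holds for the 2.98 CPM of PLK1, BUB1 and CDKN3 in Normal_1 below. PLK1 had 25.5, 30.2, 2.98 and 5.90 CPM (2.36 ± 0.54), again without overlap. PLK4, the kinase of centriole copying, had 51, 28, 0 and 0 UMIs and was at least 4.81-fold higher in the injured samples, with 3 UMIs over the normal samples as the floor.

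In the mitotic machinery, 3 of 5 genes reached the unadjusted level (median 1.35). BUB1 had 43.3, 51, 2.98 and 11.8 CPM (2.34 ± 0.54), and TOP2A 120, 155, 20.9 and 49.2 CPM in Injury_1, Injury_2, Normal_1 and Normal_2 (1.72 ± 0.41, edgeR adjusted p = 0.198). AURKB, at 69.1, 74.7, 8.94 and 41.3 CPM, had the injured samples above the normal ones with a smaller log2 fold change of 1.21 ± 0.53 (edgeR adjusted p = 0.371). Among the centromere proteins 3 of 7 reached that level (median 0.66), led by CENPE with 187, 173, 68.6 and 76.7 CPM (1.12 ± 0.23, edgeR adjusted p = 0.160).

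Of the licensing genes 4 of 10 reached it, with a median of 0.78. Among these, CDC6 and MCM2 passed the filter only through the injured samples, so this count is not a test either. MCM5 had 147 and 143 CPM in the injured samples and 8.94 and 33.4 CPM in the normal ones (2.48 ± 0.46, edgeR adjusted p = 0.136), a wide gap, though the normal values come from 3 and 17 UMIs. MCM3 had 88.5, 91.3, 38.8 and 37.4 CPM, without overlap. At the replication fork 3 of 6 genes reached the level (median 1.01), and PCNA had 537, 449, 197 and 252 CPM (0.95 ± 0.26, edgeR adjusted p = 0.207). CDKN3 was at 58.2 and 57.5 CPM against 2.98 and 13.8 CPM (2.45 ± 0.52), as 1 of 2 CDK inhibitors at that level among 3 tested. The other, CDKN2C, passed the filter only through the injured samples. No E2F gene of 2 and neither stress polo kinase reached the unadjusted level. Of the 2 G1 cyclins and kinases tested, CDK6 reached it with a higher value. CDK6 too passed the filter only through the injured samples. CCND2 pointed the other way with 252, 272, 388 and 287 CPM (-0.53 ± 0.26, edgeR adjusted p = 0.402), its normal samples above the injured ones.

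The difference went with cluster 16, which had been picked for its co-detected cells and so for values of members. That cluster gave 98.6% of the T cell-like UMIs of CCNB2, 96.9% of AURKB, 93.2% of TOP2A, 88.6% of MCM5 and 75.5% of PCNA, but 34.7% of CCND2. When the cluster was left out, a step chosen after seeing the data, 20 members could be tested, none of them reached an unadjusted p under 0.05 in edgeR with a higher value, and the median log2 fold change was 0.13. With the cluster 44 members had been tested, so this median covers fewer genes. The fall also follows in part from how the cluster was picked. The levels without it were 17.1, 7.25, 15.8 and 15.6 CPM for TOP2A (log2 fold change -0.34), 36.2, 13.3, 9.50 and 22.2 CPM for MCM5, and 225, 190, 174 and 151 CPM for PCNA in Injury_1, Injury_2, Normal_1 and Normal_2. TOP2A and MCM5 then overlapped between the groups, and PCNA did not. Both injured samples stayed above both normal ones for 13 of the 63 members. These included CDK1 with 27.7, 7.25, 3.17 and 4.44 CPM (42, 6, 1 and 2 UMIs), CENPE with 69.9, 60.5, 60.1 and 35.5 CPM, and BUB1 with 7.91, 4.84, 3.17 and 2.22 CPM (12, 4, 1 and 1 UMIs). Of the 20 members tested, this held for 3 (CDKN1B, CENPE and PCNA), against 22.8% of all genes tested.

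Other values moved with the groups in this class. The 5 neutrophil markers summed to 494 and 718 CPM in the T cell-like cells of Injury_1 and Injury_2 and to 26.8 and 35.4 CPM in those of Normal_1 and Normal_2, none of the 5 at 0. The 6 fibroblast markers ran from 161 CPM (Normal_1) to 2555 CPM (Normal_2), and the 4 T cell markers from 1139 to 1671 CPM. The part of these in the members' values was not tested. A list of 75 other known cycle genes, of which 40 were found and 30 tested in this class, was set beside the members. It gave 20 genes at an unadjusted p under 0.05 with a higher value (7.22% of all genes). For 27 both injured samples lay above both normal ones (35.1%), and its median log2 fold change was 1.81. Whether its genes passed the filter on low counts only through the injured samples was not checked. At that unadjusted level the list also gave 9 of 21 genes in macrophage-like cells (373 of 5480 genes) and 9 of 40 over all cells (777 of 10475). In each other class at most 3 of its genes reached it.

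**Figure D4:**
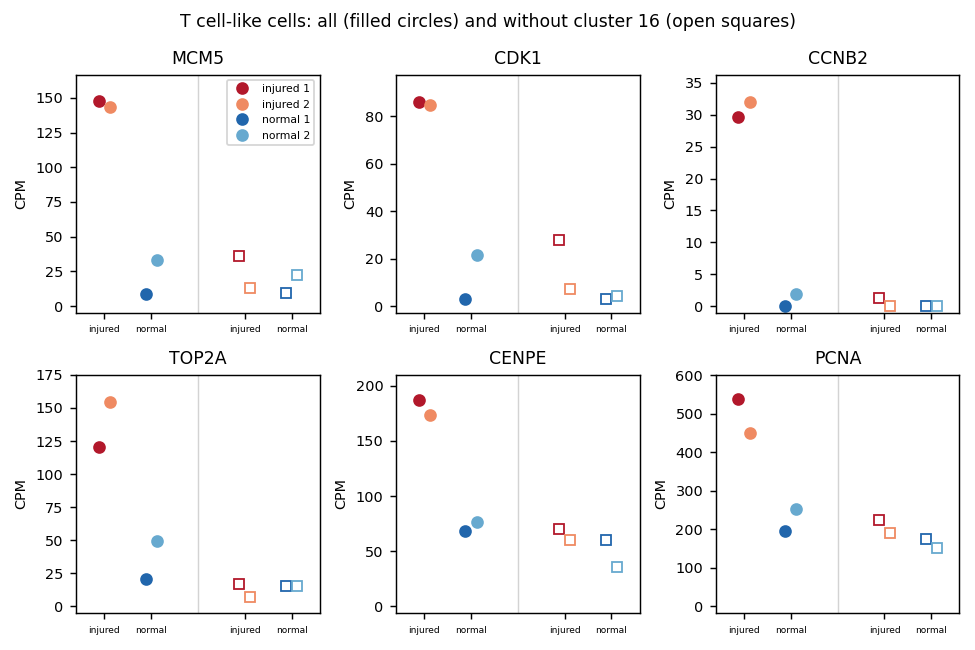
CPM of 6 members in T cell-like cells of the 4 samples, over all cells of the class (filled circles, left of each panel) and without cluster 16 (open squares, right). Over all cells the injured samples are above the normal ones for all 6 genes, and without the cluster TOP2A and MCM5 overlap.

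In the other classes the members' values were nearer to those of all genes. In epithelial-like cells, where 117 of 7046 genes were called (1.66%), no member was, and 4 of 43 reached an unadjusted p under 0.05 (20.5% of all genes). CCNB2 had 6.21 and 6.23 CPM in the injured samples and 1.14 and 1.64 CPM in the normal ones (1.95 ± 0.50, edgeR adjusted p = 0.108), without overlap. Both normal values lay under the level that the filter on low counts asks for in this class. CCNB2 thus passed the filter only through the injured samples. Neither its fold change nor the count of members at the unadjusted level, which includes it, is therefore a test. PLK3 had 16.1 and 13.2 CPM against 24.1 and 23.3 CPM, lower in both injured samples (-0.95 ± 0.28, edgeR adjusted p = 0.146). CDK1 overlapped, with 12.4, 7.83, 0.759 and 11.8 CPM in Injury_1, Injury_2, Normal_1 and Normal_2, as did TOP2A with 13.4, 4.98, 4.36 and 23.0 CPM. Directions were mixed here, and 27 of the 43 members had a log2 fold change above 0 (49.8% of all genes). The 5 neutrophil markers summed to 218 and 786 CPM in the epithelial-like cells of Injury_1 and Injury_2, against 33.0 and 69.1 CPM in Normal_1 and Normal_2. The 8 epithelial markers summed to 7626, 6988, 4481 and 5391 CPM in the same order. What part these had in the values of the members was not tested. Leaving out Normal_2 gave 2 calls, CDK1 and CDKN3, both higher, where 6.31% of all genes were called.

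Macrophage-like cells had 28 members tested, with a median log2 fold change of 0.50 and 6 at an unadjusted p under 0.05 (13.9% of all genes). MCM5 had 17.5, 16.5, 1.59 and 6.82 CPM (1.83 ± 0.58, edgeR adjusted p = 0.265), both injured samples higher. Its normal values rest on few UMIs, because the class held only 628972 and 733358 UMIs of all genes in Normal_1 and Normal_2. CCND2 lay on the other side, at 69.6 and 103 CPM in the injured samples and 196 and 130 CPM in the normal ones (-0.99 ± 0.30, edgeR adjusted p = 0.246). PCNA was level, at 294, 301, 307 and 263 CPM. The median fell to 0.035 without Injury_1, 0.18 without Injury_2 and 0.25 at most 10% mitochondrial UMIs, and the 4 members at an unadjusted p under 0.05 with a higher value became 0 of 19 without Injury_1 and 0 of 20 without Injury_2 in edgeR. Without Normal_1 the kinase PLK2 was called lower (1.3% of all genes called).

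In fibroblast-like cells 1 of 56 members, CDC6, reached an unadjusted p under 0.05 (10.8% of all genes), with 4.48, 3.19, 2.45 and 1.88 CPM (0.97 ± 0.37, edgeR adjusted p = 0.436). The members' median was -0.20, and for 18 of them both injured samples were below both normal ones (27.9% of all genes). CDKN1B had 19.4, 18.5, 14.1 and 14.9 CPM (0.50 ± 0.25, edgeR adjusted p = 0.556), without overlap. Leaving out Normal_2 gave 3 calls (CDK1 higher, CDKN3 and TOP2A lower, with 4.33% of all genes called), and the comparison then rested on Normal_1, whose TOP2A value stood apart.

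In endothelial-like cells 3 of 50 members reached the unadjusted level (6.89% of all genes) and the median was -0.05. PLK3 had 24.4 and 22.6 CPM in the injured samples against 13.8 and 10.8 CPM (0.86 ± 0.24, edgeR adjusted p = 0.540), without overlap. PCNA had 153 and 198 CPM in the injured and 312 and 202 CPM in the normal samples (-0.61 ± 0.26, edgeR adjusted p = 0.709), where Normal_1 was far above the rest. Smooth muscle and pericyte-like cells had 2 of 36 members at the unadjusted level (9.58% of all genes). CDK1, 1 of these 2, was at 10.1 and 7.85 CPM in the injured against 2.48 and 3.01 CPM in the normal samples there (1.68 ± 0.44, edgeR adjusted p = 0.352). Both normal values lay under the level that the filter on low counts asks for (10 UMIs in the median library). CDK1 thus passed the filter only through the injured samples, so neither the count nor its fold change is a test. This class gave 3 calls without Normal_1 (CCNE2, CDKN2AIP and CENPE, higher, with 9.07% of all genes called) and 2 without Normal_2 (CCNB1IP1 and PLK2, lower, with 18.1%). Only 6 members could be tested in neutrophil-like cells, and none reached an unadjusted p under 0.05 in edgeR (7.18% of all genes).

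Over all cells of a sample, 4 of 61 members reached an unadjusted p under 0.05 (11.8% of all genes), and 1 of 10475 genes was called (0.00955%), not a member. BUB1 had 4.20, 3.78, 1.69 and 1.24 CPM (1.44 ± 0.31, edgeR adjusted p = 0.215) and was called by DESeq2 (4.24% of all genes). AURKB had 8.98, 6.68, 2.34 and 3.52 CPM (1.37 ± 0.38, edgeR adjusted p = 0.289), and for both genes the injured samples were above the normal ones. MCM5, called when Normal_2 was left out (1.24% of all genes), had 20.8, 16.8, 4.56 and 16.3 CPM in Injury_1, Injury_2, Normal_1 and Normal_2. PCNA (174, 174, 239 and 164 CPM) and TOP2A (35, 39.9, 50.1 and 31.7 CPM) overlapped. In such sums, more cells of a class and more RNA per cell cannot be told apart, and T cell-like cells were a larger share of both injured samples.

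**Figure D5:**
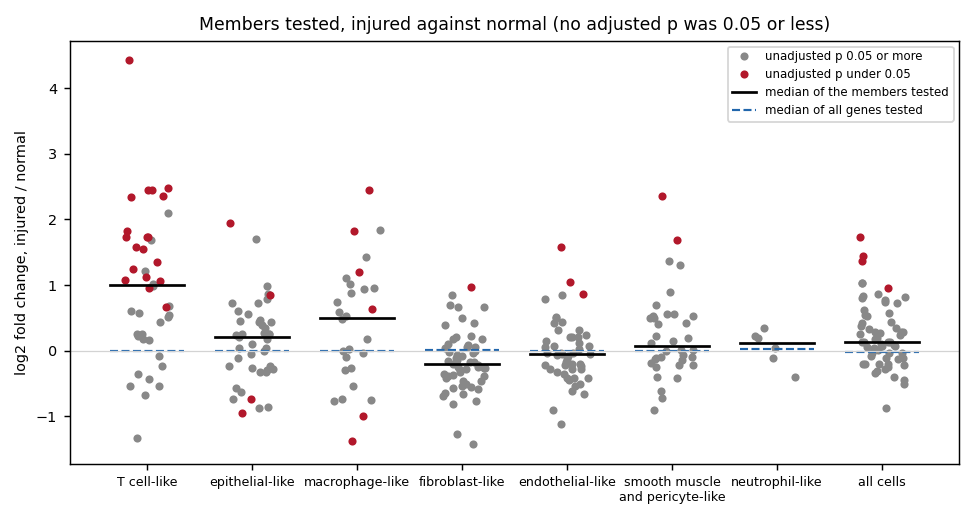
Log2 fold change, injured over normal, of the members tested in each class and over all cells; points are members (red: unadjusted p under 0.05), black lines the members' medians and dashed blue lines the medians of all genes tested. Members without a UMI in the normal samples are not drawn. The T cell-like median is 1.00, and the other medians lie between -0.20 and 0.50.

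A test of the difference between injury effects was possible for epithelial-like and endothelial-like against fibroblast-like cells, with 56 members tested. In endothelial-like cells no member was called (0.0673% of all genes) and 1 reached an unadjusted p under 0.05 in edgeR (7.55%). In epithelial-like cells 1 member was called, PLK3 (3.43% of all genes). Its fibroblast-like level was 24.5, 19.5, 16.1 and 19.4 CPM in Injury_1, Injury_2, Normal_1 and Normal_2, with the groups almost touching, while in epithelial-like cells the injured samples were lower.

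The share of cells with a TOP2A UMI was also compared, after thinning to 1000 UMIs per cell. In T cell-like cells it was 4.28% and 3.26% in the injured samples and 1.32% and 2.80% in the normal ones, a difference of 1.71 percentage points (exact permutation test, two-sided p = 0.33, the smallest this design allows). In fibroblast-like cells it was 2.86%, 3.12%, 7.38% and 2.33%, where Normal_1 alone was high. Endothelial-like (3.08%, 3.67%, 3.93% and 2.46%), epithelial-like (0.680%, 0.431%, 0.384% and 0.964%) and macrophage-like shares (1.39%, 1.70%, 0.787% and 1.67%) overlapped between the groups. Without thinning, T cell-like shares overlapped too (13.4%, 9.14%, 6.06% and 9.17%). Thinned smooth muscle and pericyte-like shares were 3.61%, 6.51%, 6.10% and 3.33%. They exceeded the T cell-like shares in Injury_2, Normal_1 and Normal_2, so T cell-like cells did not stand apart by this measure. As a background level, neutrophil-like cells, thinned in the same way, gave 0.128%, 0.212%, 0 and 0.619%, the last from 17 cells, at unthinned median depths of 1027, 7967, 5627 and 3293.5 UMIs. Epithelial-like shares were above the neutrophil-like share of the same sample, but those of Injury_2 and Normal_1 lay below the 0.619% of Normal_2. T cell-like shares were above all of these neutrophil-like values in every sample. Whether the injury effect in T cell-like cells differed from that in other classes was not tested.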

How the data were processed

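The deposited files held raw UMI counts per gene and cell barcode, which the authors made with Cell Ranger 6.0.1 without normalization; the rabbit genome release was not given in the sources used here. Barcodes were kept from 500 UMIs and 200 genes upwards where mitochondrial UMIs (13 genes) did not exceed 15%, 4308 to 6081 per sample. Counts were log-normalized, integrated over the samples and clustered in Seurat 5.3.0 (30 components, Louvain resolution 0.8) without cycle genes among the clustering genes. Clusters were named from at least 3 raised markers, and 3 of 28 clusters (592 cells) stayed unnamed, among them clusters made up mostly of cells with high Scrublet scores (scanpy 1.11.5). Doublets were otherwise kept.

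UMI counts were summed per class and sample and tested with edgeR 4.0.16 (filterByExpr, TMM, quasi-likelihood, Benjamini-Hochberg), injured against normal and, with sample as a block, classes against fibroblast-like cells. DESeq2 1.42.0 was an alternative. Fits of injured against normal were tested on simulated data for fibroblast-like, endothelial-like and epithelial-like cells only, and not for T cell-like cells. Members, roles and lists were chosen with earlier results of these data known. Named genes were TOP2A, PCNA, CDK1, CCND2, CCND3, CDKN1B, CDKN2B and CDKN2C, members called for injury, and in class contrasts the 5 largest rises and falls called at 20 CPM or more. Genes named beyond this were chosen after values were seen. The study calls the samples biological replicates without naming the animals, and p-values rest on the spread between 2 samples per group.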

Additional observations from a re-analysis of the deposited data

Results flagged for a closer look

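The injury effect on PLK3, a polo kinase known for stress responses, differed between epithelial-like and fibroblast-like cells by -1.33 on the log2 scale (edgeR adjusted p = 0.0452 for the interaction, 1 of 56 members tested). In epithelial-like cells both injured samples were below both normal ones, and in fibroblast-like cells they were above them, with Injury_2 (19.5 CPM) next to Normal_2 (19.4 CPM). The adjusted p of the edgeR fit was 0.483 without Injury_1, 0.306 without Injury_2, 0.0558 without Normal_1, 0.0822 with at most 10% mitochondrial UMIs, 0.0547 at the coarser clustering and 0.0507 without the clusters led by cycle genes, so the call was lost in each of these.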

How the results depend on the processing

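Counts of members called moved with the filter and with single libraries. Without the filter on low counts, injured against normal gave 16 calls in T cell-like (3.49% of all genes), 3 in epithelial-like (8.02%), 1 in fibroblast-like (4.1%) and 3 in macrophage-like cells (3.95%), and 3 for the epithelial-like interaction (5.39%). DESeq2 gave 2 calls in T cell-like cells (1.76%) and 1 over all cells (4.24%). Leaving out each library in turn gave 3 to 13 calls in T cell-like, 0 to 2 in epithelial-like, 0 to 3 in fibroblast-like, 0 to 1 in macrophage-like and 0 to 3 in smooth muscle and pericyte-like cells, 0 to 1 over all cells and 0 to 2 for the epithelial-like interaction, with the lone sample of an arm assumed to vary like the other group. That interaction had 0 calls at the coarser clustering and 0 without the clusters led by cycle genes. The cause was not tested. Against fibroblast-like cells, endothelial-like calls were 26 at the coarser clustering (57.1% of all genes) and 24 with cycle genes kept in the clustering (56%), and T cell-like calls were 20 without cluster 16 (59.7%), an alternative chosen after seeing the data. Leaving out a library gave 15 to 22 calls in macrophage-like (47.2% to 55.6% of all genes), 16 to 25 in neutrophil-like (44.4% to 53.3%) and 3 to 11 in smooth muscle and pericyte-like cells (25.1% to 32.5%). Without the replicate block (sample as a term) there were 15 in macrophage-like (51%) and 7 in smooth muscle and pericyte-like cells (26.6%).

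The replicate number as a block for injured against normal gave 0 calls among members in every class and over all cells, and 17 T cell-like members at an unadjusted p under 0.05 with a higher value. Same-numbered samples correlated at -0.109 to 0.228 in their deviations, and the labels state no pairing, so the numbers were not taken as pairs. The crossed block in neutrophil-like cells, chosen after seeing the data, gave 0 calls.

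The difference in the share of cells with a TOP2A UMI, in percentage points, was 0.967 to 2.45 in T cell-like cells when a library was left out. It changed sign in the others: -0.552 to 0.909 in endothelial-like, -0.408 to 0.172 in epithelial-like, -4.39 to 0.660 in fibroblast-like, -0.124 to 0.756 in macrophage-like and -1.10 to 1.80 in smooth muscle and pericyte-like cells. For neutrophil-like cells too few normal cells reached the depth to give a difference. Without cluster 16 the T cell-like log2 fold change of TOP2A for injury was -0.34, and the difference of AURKB from fibroblast-like cells was -0.043. Of 778 fold changes of single genes under other settings, 701 kept their direction and side of the threshold, 36 passed it where the main value did not, 39 no longer passed it and those 2 changed sign. Of 267 summary values, 228 held, 31 moved and 8 changed sign. Normal T cell-like cells (99 and 109) limit the depth behind every T cell-like value.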
